A study of Mus musculus with 4 samples.

Results

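The hypoxia-inducible factor (HIF) pathway was examined in mouse liver through 10 genes. They were a pair of HIF subunits (Hif1a, Arnt), the hydroxylases that sense oxygen (Egln1, Egln2, Hif1an), the ubiquitin ligase subunit Vhl, and the HIF targets Vegfa, Ndrg1, Bnip3 and P4ha1. They were taken from a fixed list, as the assembled loci that overlap their exons on GRCm38, out of 21683 protein-coding genes. Liver RNA had been sequenced from male C57BL/6 mice, with 2 libraries from hemojuvelin knockout animals and 2 from wild type animals. The knockout animals were homozygous for a disrupted hemojuvelin gene (Hjv), whose protein is a co-receptor that induces the iron hormone hepcidin. Both genotypes were on an AIN-93G diet low in iron (2.5 mg/kg) that began at 5 weeks of age and lasted 50 days, and livers were collected at 12 weeks. Per the labels, the wild type mice came from a commercial supplier and the knockout line from another laboratory, so colony and genotype cannot be told apart. Whether the libraries came from separate animals is not in the labels, and p-values measure only the spread between these libraries, which may be technical.

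HIF is a dimer of an oxygen-regulated alpha subunit and the constant partner Arnt. Prolyl hydroxylases, the Egln enzymes, use oxygen, iron and 2-oxoglutarate to hydroxylate the alpha subunit, and Vhl then directs it to the proteasome. Hif1an hydroxylates an asparagine that HIF needs for its coactivators. When oxygen or iron is short, HIF alpha is stabilised as a protein and activates genes for glycolysis, vessel growth, mitophagy and iron uptake. Transcript levels therefore report on the targets and on the supply of pathway components, not on the HIF protein itself.

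The promoter sequences of Egln1, itself a known HIF target, and of the 3 targets with an entry are shown because HIF recognises a short core in such regions. They run 5′ to 3′ from 250 bases before the annotated start to 50 after it, on GRCm38.p6 from RefSeq. Capitals mark the core ACGTG or GCGTG on either strand. The E-box CACGTG, which other factors also bind, holds ACGTG on both strands and counts as 2 matches.
Egln1 (chr8:124949205-124949504, minus strand): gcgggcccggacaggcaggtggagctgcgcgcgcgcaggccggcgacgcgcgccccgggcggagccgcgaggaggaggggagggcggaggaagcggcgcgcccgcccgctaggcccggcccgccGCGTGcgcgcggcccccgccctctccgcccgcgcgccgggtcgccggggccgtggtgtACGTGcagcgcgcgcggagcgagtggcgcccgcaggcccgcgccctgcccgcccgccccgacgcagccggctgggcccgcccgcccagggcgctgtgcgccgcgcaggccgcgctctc
Vegfa (chr17:46032328-46032627, minus strand): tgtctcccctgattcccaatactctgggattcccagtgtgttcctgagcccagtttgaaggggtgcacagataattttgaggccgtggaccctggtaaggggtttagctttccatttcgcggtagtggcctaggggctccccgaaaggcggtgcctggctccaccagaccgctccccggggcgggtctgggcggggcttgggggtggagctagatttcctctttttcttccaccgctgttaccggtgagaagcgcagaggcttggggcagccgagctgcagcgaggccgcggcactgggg
Bnip3 (chr7:138909457-138909756, minus strand): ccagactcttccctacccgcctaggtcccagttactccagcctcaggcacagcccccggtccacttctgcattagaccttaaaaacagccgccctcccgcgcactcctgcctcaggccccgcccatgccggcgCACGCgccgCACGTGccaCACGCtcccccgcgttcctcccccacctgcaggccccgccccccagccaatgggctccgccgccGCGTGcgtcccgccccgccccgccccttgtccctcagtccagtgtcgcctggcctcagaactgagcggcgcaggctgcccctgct
P4ha1 (chr10:59323046-59323345, plus strand): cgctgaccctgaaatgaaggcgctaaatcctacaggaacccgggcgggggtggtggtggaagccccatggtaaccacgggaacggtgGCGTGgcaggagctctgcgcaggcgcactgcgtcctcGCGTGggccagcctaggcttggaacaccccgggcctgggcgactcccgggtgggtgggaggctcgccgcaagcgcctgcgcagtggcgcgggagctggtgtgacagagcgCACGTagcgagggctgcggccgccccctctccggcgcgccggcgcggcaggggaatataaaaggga
Of the 10 genes, 9 had a promoter entry, and Ndrg1 had none. At the first listed start, Egln2 held 6 matches, Bnip3 5, Hif1a and P4ha1 3 each, Egln1 2 and Arnt 1. Vegfa, Vhl and Hif1an held 0 in this window. A second listed start held 2 matches for Vegfa and 1 for Egln2. Of 32851 promoters of this length, 43.8% held at least 1 match, 19.6% held ACGTG and 32.4% held GCGTG. A match is a run of letters and was not tested as a binding site.

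Transcripts had been assembled separately in each library, so the deposited values are for loci and not for genes. The values are FPKM (fragments counted relative to transcript length and to library size). The libraries held 56237 and 30190 loci in knockout replicates 1 and 2, against 41541 and 26238 in wild type replicates 1 and 2. If the smallest step by which the bounds of short loci differ is 1 fragment, depth was 54.9 and 131 M fragments in the knockout libraries and 87.1 and 51.2 M in the wild type libraries. Hjv had no usable locus in knockout replicate 1 and 0.235 scaled FPKM in knockout replicate 2, against 9.17 and 29.5 in the wild type libraries. Hepcidin (Hamp) had none in knockout replicate 1 and 1.61 in knockout replicate 2, against 21.8 and 99.8. Of 4 tested hepatocyte markers, Apoa1 lay above wild type at 3401 and 4982 in knockout against 2628 and 1592 in wild type, and Tat below at 245 and 237 against 453 and 405. Hnf4a and Cps1 overlapped. The hepatocyte markers Alb and Serpina1a had no usable locus in any library, so a gene without a locus is not a gene at 0.

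The exons of the 10 genes were overlapped by 67 loci, 20 and 12 in the knockout libraries and 20 and 15 in the wild type libraries. Of these, 64 were used, and 3 were left out because their FPKM exceeded 3 times the midpoint of their own bounds. Each gene received 1 value per library, an average over its loci in which longer exonic stretches weigh more, scaled between libraries. All 10 genes had loci spanning at least 50% of a coding transcript in every library, so all 10 entered the test. Over all libraries Bnip3 stood highest at a mean of 139 scaled FPKM (range 117 to 161), followed by Vegfa at 22.8 (17.1 to 28.5). The ranges of those genes do not overlap each other or those of any other, except that Vegfa overlapped Egln2, whose range of 4.20 to 22.9 was the widest as a ratio. Hif1a (mean 11.0) and Egln1 (9.40) came next, with ranges that overlap. Arnt averaged 6.71 and Ndrg1 4.94. P4ha1, Hif1an and Vhl lay together at 4.18, 4.16 and 3.96, with overlapping ranges.

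**Figure D1:**
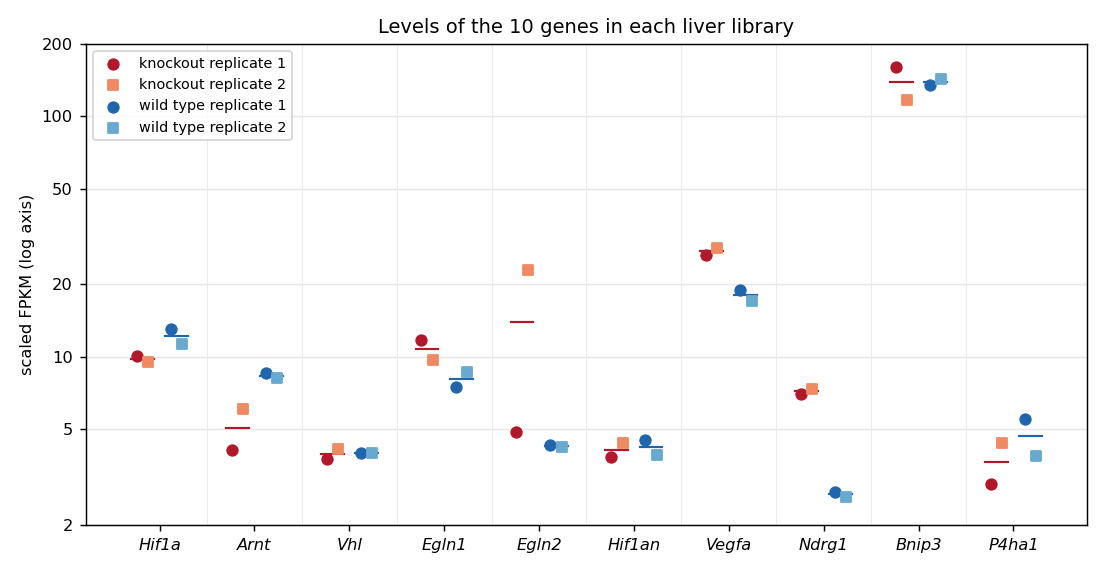
Scaled FPKM of the 10 genes on a log axis, 1 point per library, with a line at each group mean (red and orange for knockout, blue for wild type, n = 2 each). Ndrg1 and Vegfa are higher in both knockout libraries, Arnt is lower in both, and knockout replicate 2 stands apart for Egln2 at 22.9.

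The comparison of knockout with wild type asks how loss of hemojuvelin on this diet is reflected in the pathway. Ndrg1 was 2.69 times as high in the knockout libraries and Vegfa 1.52 times, while Arnt was at 0.609 of its wild type level. The groups did not overlap for 6 of the 10 genes, with knockout above for 4 (Egln1, Egln2, Vegfa, Ndrg1) and below for 2 (Hif1a, Arnt). Among all 7931 genes tested the groups did not overlap for 46.1%, with knockout above for 22.3% and below for 23.8%, so the count for the 10 genes is near the background. By limma with Benjamini-Hochberg adjustment 0 of the 10 passed an adjusted p of 0.05, as did 0 of all genes (0%). The lowest adjusted p among the 10 was 0.315. At an unadjusted p under 0.05, Ndrg1 and Vegfa were higher and Arnt lower, 3 of 10 against 11.2% of all genes (5.83% higher and 5.35% lower). The median log2 difference was -0.01 over the 10 genes and 0.02 over all genes tested. In bulk liver, fewer cells of a type and less RNA per cell cannot be told apart.

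Of the HIF subunits, Arnt and Hif1a lay below wild type in both knockout libraries, while Epas1 overlapped. Hif1a (chromosome 12, 73901375 to 73947530) measured 10.1 and 9.56 scaled FPKM in knockout, against 13.1 and 11.3 in wild type. Its log2 difference, on the scale of log2(scaled FPKM + 1), was -0.28 with an SE of 0.19 and an unadjusted p of 0.198 by limma. The groups did not overlap, but the gap between 10.1 and 11.3 was smaller than the wild type pair's own spread. Arnt (chromosome 3, 95434388 to 95497240) measured 4.11 and 6.05 in knockout, against 8.54 and 8.15 in wild type. The group means were 5.08 ± 1.37 in knockout and 8.34 ± 0.277 in wild type (SD, n = 2 each). The log2 difference was -0.64 with an SE of 0.23, an unadjusted p of 0.0419 and an adjusted p of 0.441 by limma. It was -0.40 without knockout replicate 1 and -0.88 without knockout replicate 2.

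Arnt lies 1.03 Mb from the disrupted hemojuvelin gene on the same chromosome, and whether the DNA between them differs between the genotypes was not tested. In knockout replicate 1 its first exons were assembled as a locus with 144 exonic bases and an FPKM of 3328, against bounds of 0.758 and 3.41. That locus was not used, and including it turned the log2 difference to 1.25. Over the 4902 exonic bases assembled in all 4 libraries, Arnt measured 4.24 and 6.26 in knockout against 8.996 and 8.16 in wild type. The groups stayed apart there, with a log2 difference of -0.63. Each shared base took the FPKM of the whole locus that covered it, so effects of differing assembled pieces remain.

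Epas1, which encodes the HIF-2 alpha subunit that dominates iron-related HIF targets in liver, measured 22.2 and 39.2 in knockout and 27.7 and 23.3 in wild type. Its groups overlapped. Cited2, a HIF-induced protein that competes with HIF alpha for its coactivators, measured 15.1 and 12.9 in knockout against 25.3 and 29.6 in wild type. The log2 difference of Cited2 was -0.92, with an unadjusted p of 0.00562 and an adjusted p of 0.402 by limma. Its loci spanned 74.2% and 100% of a coding transcript in knockout, but 51.6% and 50.6% in wild type, so the values cover unlike stretches. The coactivator Ep300 measured 3.65 and 3.69 in knockout against 3.45 and 2.74 in wild type. Of 6 tested genes in the list of HIF subunits and coactivators, 1 lay above in both knockout libraries, 3 lay below and 2 overlapped. The shares over all genes tested were 22.3% above and 23.8% below.

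The sensors did not share 1 direction. Egln1 (chromosome 8, 124908587 to 124949324), which encodes PHD2, the main prolyl hydroxylase for HIF-1 alpha, measured 11.8 and 9.66 in knockout against 7.52 and 8.61 in wild type. Both knockout values lay above both wild type values, with means of 10.7 ± 1.51 and 8.06 ± 0.770 (SD, n = 2 each). The log2 difference was 0.37 with an SE of 0.20 and an unadjusted p of 0.130 by limma. In knockout replicate 1 and wild type replicate 2 nearly the same 4 exons were assembled, with ends within 60 bases. The deposited, unscaled FPKM of that segment was 14.2 (bounds 12.6 and 14.3) in the knockout library and 7.92 (bounds 6.95 and 8.30) in the wild type library. After scaling these are the 11.8 and 8.61 given above, a narrower gap.

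Egln2 (chromosome 7, 27158658 to 27166802), which encodes PHD1, measured 4.85 and 22.9 in knockout against 4.32 and 4.20 in wild type. The difference rested on knockout replicate 2, which stood 4.73 times above knockout replicate 1. The log2 difference of 1.17 (SE 0.68, unadjusted p 0.146) was 0.15 without knockout replicate 2 and 2.18 without knockout replicate 1. Without knockout replicate 1 the adjusted p was 0.0251 by limma, with the lone knockout library assumed to vary like the wild type pair. Over all alternatives the adjusted p of Egln2 lay between 0.0251 and 0.998. Over the 2019 exonic bases assembled in all libraries, Egln2 measured 4.67 and 23.5 in knockout against 5.05 and 4.603 in wild type, and the groups overlapped. The GC content of its longest coding transcript is 62.2%, above that of 99.4% of tested genes. Between the knockout libraries, genes richer in GC tended to be higher in replicate 2 (Spearman 0.477 across 7931 genes, a description over genes that share the same libraries). The wild type libraries showed the same tendency toward replicate 2 (Spearman 0.264). The part of GC content in the Egln2 value was not tested.

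Hif1an (chromosome 19, 44562850 to 44576274), the asparaginyl hydroxylase FIH, measured 3.85 and 4.37 in knockout and 4.53 and 3.92 in wild type. Vhl (chromosome 6, 113623959 to 113631633) measured 3.75 and 4.13 in knockout and 3.98 and 3.96 in wild type. The groups overlapped for both genes. The log2 difference was -0.03 (SE 0.20) for Hif1an and -0.01 (SE 0.19) for Vhl, and as deposited, without scaling, 0.14 and 0.16, so neither has a direction here. Egln3, which encodes the hypoxia-induced PHD3, measured 11.2 and 6.42 in knockout and 9.47 and 7.92 in wild type, and its groups overlapped.

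The VHL ligase binds its substrates with the elongins. Eloc (elongin C) measured 16.2 and 11.7 in knockout against 19.4 and 18.5 in wild type, a log2 difference of -0.43 with an unadjusted p of 0.113 by limma. Elob (elongin B) measured 15.4 and 84.1 in knockout against 13.1 and 15.6 in wild type. As for Egln2, knockout replicate 2 alone stood apart. Of 10 tested genes in the list of oxygen sensors and the VHL ligase, 2 lay above in both knockout libraries, 1 lay below and 7 overlapped. The shares over all genes tested were 22.3% above and 23.8% below. Egln2, whose difference rested on knockout replicate 2, is among the 2 above.

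**Figure D2:**
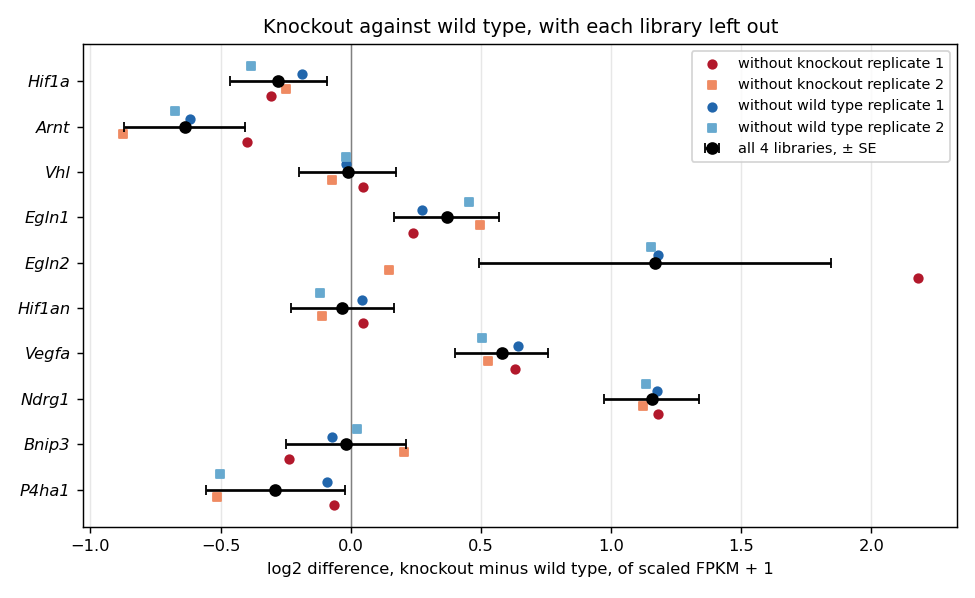
Log2 difference (knockout minus wild type, of scaled FPKM + 1) of the 10 genes, with the SE from limma as a bar and the value with each library left out as coloured points. Ndrg1 stays between 1.12 and 1.18 and Vegfa between 0.50 and 0.64, while Egln2 spans 0.15 to 2.18.

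Of the targets Vegfa, Ndrg1, Bnip3 and P4ha1, the first pair had higher levels in both knockout libraries. Vegfa (chromosome 17, 46016993 to 46032369), the vascular endothelial growth factor, measured 26.5 and 28.5 in knockout against 19.0 and 17.1 in wild type. The means were 27.5 ± 1.39 in knockout and 18.1 ± 1.33 in wild type (SD, n = 2 each). The log2 difference of 0.58 (SE 0.18) had an unadjusted p of 0.0240 and an adjusted p of 0.423 by limma.

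The body of Vegfa was assembled with identical ends in knockout replicate 1 and wild type replicate 2, from 46017050 to 46031377. The deposited FPKM of that locus was 32.7 (bounds 31.6 and 33.7) in the knockout library and 15.8 (bounds 15.0 and 16.8) in the wild type library. Scaling divides these by 1.204 and 0.9199, which narrows the gap. Near the gene start, a separate short locus measured 25.3 FPKM in knockout replicate 1, against 21.03 and 15.3 in the wild type libraries. These values are also as deposited, and scaling divides by 1.204 in knockout replicate 1 and 0.9406 in wild type replicate 1. The order of those libraries at the short locus therefore gives no direction. All 3 of these short loci have an FPKM above their own upper bounds. In knockout replicate 2 a single locus of 27.3 FPKM covered both stretches. Adding the loci of a gene, in place of averaging them, turned the log2 difference of Vegfa to -0.01.

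Ndrg1 (chromosome 15, 66929318 to 66969640), a stress protein induced by HIF and by iron chelation, measured 7.01 and 7.38 in knockout against 2.74 and 2.62 in wild type. The group means were 7.20 ± 0.261 in knockout and 2.68 ± 0.0916 in wild type (SD, n = 2 each), a ratio of 2.69. The log2 difference of 1.16 (SE 0.18) had an unadjusted p of 0.00165 and an adjusted p of 0.315 by limma. The adjusted p was 0.0499 without knockout replicate 1 and 0.104 when knockout replicate 2 was left out, and over all alternatives it lay between 0.0499 and 0.998.

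The assembled pieces of Ndrg1 differed between libraries, and the size of the difference depends on them. The loci spanned 67.7% of a coding transcript in knockout replicate 1 and 100% in the others. The last exon was assembled alone in knockout replicate 1 and wild type replicate 1, with ends within 60 bases, at 10.4 FPKM (bounds 8.68 and 10.6) against 4.96 (bounds 4.11 and 5.04). The upstream locus of the same libraries measured 1.86 FPKM in knockout replicate 1 and 1.71 in wild type replicate 1. These upstream loci are unlike, with 475 exonic bases over 5 exons in the knockout library and 4382 over 14 exons in the wild type library. The FPKM of single loci given here is as deposited, without scaling, so the order of the upstream loci gives no direction. Scaling divides by 1.204 in knockout replicate 1 and 0.9406 in wild type replicate 1, which narrows the gap at the last exon. Knockout replicate 2 measured 7.58 and 5.07 in its downstream and upstream loci, and wild type replicate 2 had a single locus at 2.41. Both loci of knockout replicate 2 and the upstream locus of knockout replicate 1 had an FPKM above their own upper bounds (7.52, 4.57 and 1.65). The wild type loci lay inside their bounds. Over the 2068 exonic bases assembled in all 4 libraries, 31.4% of the gene's exonic bases, Ndrg1 measured 6.81 and 7.46 in knockout against 4.49 and 2.62 in wild type. The groups stayed apart, and the log2 difference was 0.87 with an unadjusted p of 0.0242 by limma. Each shared base took the FPKM of its whole locus, so this value cannot remove the effect of differing pieces.

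**Figure D3:**
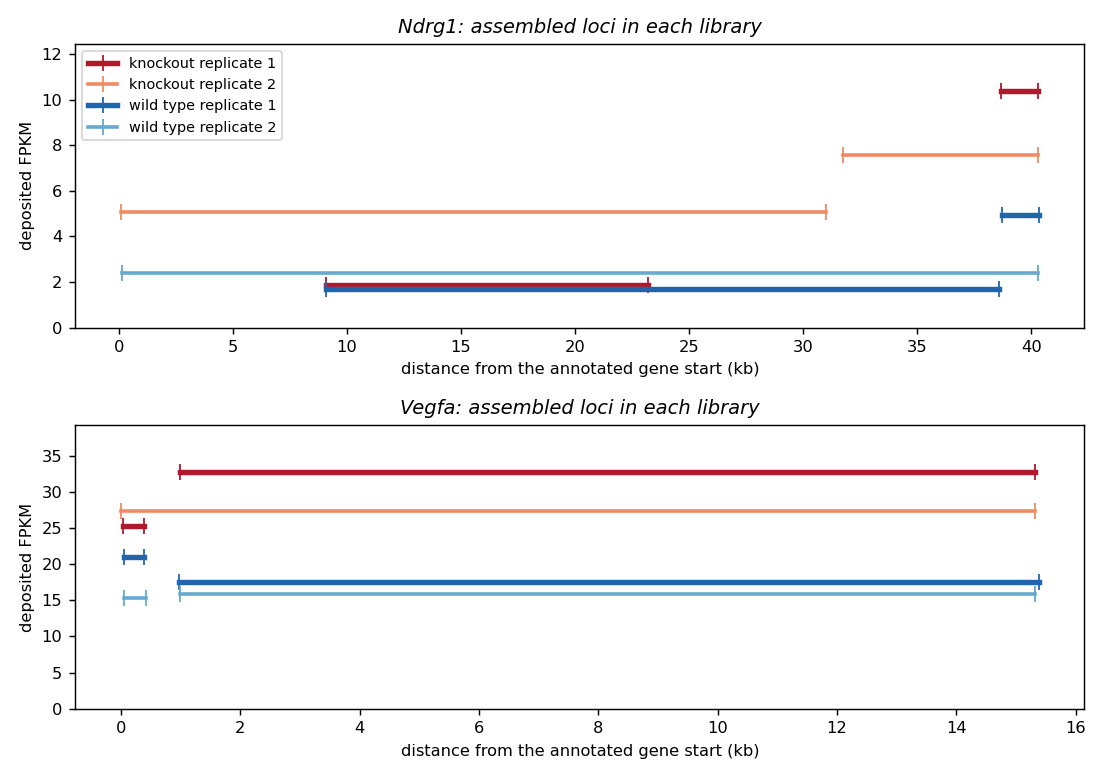
Assembled loci of Ndrg1 and Vegfa in each library, as lines from their first to their last base (distance from the annotated gene start in kb), at the height of their deposited FPKM. The loci that cover the last exon of Ndrg1 lie at 10.4 and 7.58 in knockout, against 4.96 and 2.41 in wild type. These loci hold 1 exon in both replicate 1 libraries, 3 exons in knockout replicate 2 and 16 in wild type replicate 2, so they are not alike. The loci over the Vegfa body lie at 32.7 and 27.3 against 17.6 and 15.8.

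Of the other NDRG family members, Ndrg2, the abundant liver form, measured 384 and 481 in knockout against 502 and 571 in wild type. Ndrg3 measured 4.04 and 7.10 in knockout against 7.98 and 7.92 in wild type. Both lay below wild type in both knockout libraries, with log2 differences of -0.32 and -0.49 and unadjusted p of 0.226 and 0.148 by limma.

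Bnip3 and P4ha1 showed overlapping groups. Bnip3 (chromosome 7, 138890836 to 138909519), a receptor for mitophagy, measured 161 and 117 in knockout and 135 and 143 in wild type. The means were 139 ± 30.7 in knockout and 139 ± 6.21 in wild type (SD, n = 2 each), and the log2 difference was -0.02 (SE 0.23), or 0.19 as deposited. Its related gene Bnip3l, also a mitophagy receptor, measured 19.1 and 17.6 in knockout against 32.9 and 33.2 in wild type. Bnip3l had a log2 difference of -0.82 (SE 0.17), an unadjusted p of 0.00568 and an adjusted p of 0.402 by limma. The difference between these paralogs was not tested.

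P4ha1 (chromosome 10, 59323296 to 59373304), the catalytic subunit of collagen prolyl 4-hydroxylase, measured 2.96 and 4.37 in knockout and 5.49 and 3.89 in wild type. Its log2 difference was -0.29 (SE 0.27) with an unadjusted p of 0.328 by limma. P4hb, the partner subunit and a disulfide isomerase, measured 338 and 440 in knockout against 569 and 514 in wild type, a log2 difference of -0.49. Plod3, a lysyl hydroxylase of collagen, measured 3.31 and 8.00 in knockout against 2.89 and 3.24 in wild type. Of 4 tested genes in the list of collagen hydroxylases and crosslinking enzymes, 1 lay above in both knockout libraries, 1 lay below and 2 overlapped. Among all genes tested 22.3% lay above and 23.8% below.

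The other HIF targets did not share 1 direction. In the list of glycolysis and lactate genes, 6 of 12 tested genes lay below wild type in both knockout libraries and 2 lay above. Among all genes tested 23.8% lay below and 22.3% above. The list's median log2 difference was -0.27. As deposited, without scaling, 6 lay below and 6 above, with a median of -0.09 where all genes stood at 0.19. The glycogen branching enzyme Gbe1 measured 37.7 and 29.1 in knockout against 66.8 and 67.8 in wild type. The phosphoglycerate kinase Pgk1 measured 79.3 and 65.0 in knockout against 125 and 131 in wild type. The lactate dehydrogenase subunit Ldha measured 149 and 193 against 249 and 245, and the enolase Eno1 38.9 and 76.4 against 79.6 and 95.2. Unadjusted p was 0.00507 for Gbe1, 0.00911 for Pgk1, 0.0569 for Ldha and 0.127 for Eno1 by limma. The adjusted p was 0.402 for Gbe1 and 0.402 for Pgk1. The list's median was -0.08 with knockout replicate 1 left out, -0.48 with knockout replicate 2 left out, and -0.08 over exonic bases assembled in all 4 libraries, where 15 of its genes could be tested.

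In the list of mitophagy and growth targets, 5 of 16 tested genes lay above wild type in both knockout libraries and 5 below, with a median of -0.01. Among all genes tested 22.3% lay above and 23.8% below. The list's split depended on the scaling: as deposited, where the median of all genes stood at 0.19, 7 lay above and 3 below (median 0.18). With knockout replicate 1 left out the median was -0.23 over 14 tested genes. Besides Ndrg1, Wsb1, a substrate receptor of a ubiquitin ligase, measured 16.0 and 8.85 in knockout against 5.38 and 4.69 in wild type, with an unadjusted p of 0.0175 and an adjusted p of 0.421 by limma. Vldlr, a lipoprotein receptor, measured 2.29 and 1.52 in knockout against 0.843 and 1.02 in wild type. Fam162a, a mitochondrial protein induced by hypoxia, lay the other way at 54.5 and 34.4 in knockout against 66.9 and 68.7 in wild type. In the list of vessel and erythropoiesis targets only 3 of 12 genes could be tested. Apart from Vegfa these were the annexin Anxa2, at 5.50 and 6.88 in knockout against 10.5 and 7.26 in wild type, and the VEGF receptor Kdr, whose groups overlapped at 8.52 and 10.2 in knockout and 9.10 and 8.78 in wild type.

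Of 5 tested HIF targets that handle iron, 2 lay above wild type in both knockout libraries and 1 below. The transferrin receptor Tfrc measured 2.71 and 2.02 in knockout against 15.5 and 11.2 in wild type, with an adjusted p of 0.266 by limma. The iron exporter Slc40a1 measured 60.6 and 61.8 against 38.0 and 37.1, and the iron importer Slc11a2 6.18 and 5.66 against 4.75 and 5.11. Iron itself also regulates these mRNAs through iron regulatory proteins. Over all pathway lists with the 10 genes left out, 10 of 48 tested genes lay above wild type in both knockout libraries (20.8%) and 18 below (37.5%), against 22.3% and 23.8% of all genes tested. The median log2 difference was -0.07, against 0.02 for all genes. As deposited, without scaling, the median of all genes was 0.19 and that of the pathway lists with the 10 genes 0.13. Scaling uses 1 factor per library and moves both medians nearly alike, so their order as deposited is not separate evidence.

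**Figure D4:**
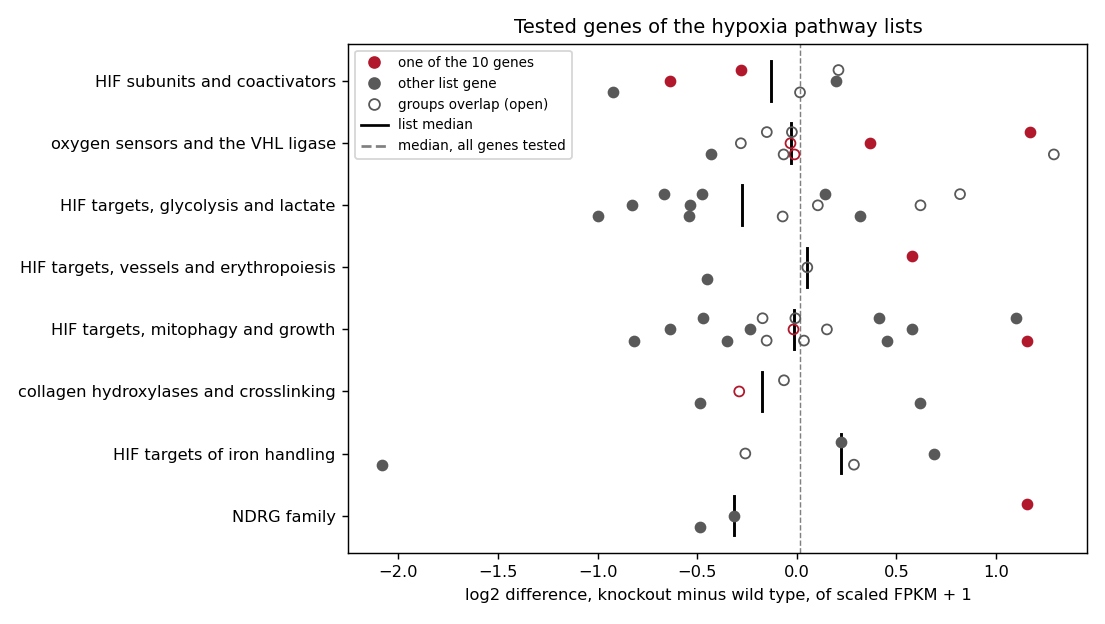
Log2 difference (knockout minus wild type, of scaled FPKM + 1) of each tested gene in the hypoxia pathway lists, with the 10 genes in red, open circles where the groups overlap, and a bar at each list's median. The glycolysis list has its median at -0.27, the mitophagy and growth list at -0.01, and the dashed line marks the median of all genes tested at 0.02.

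Markers of other liver cell types were measured beside these results. For comparison, 22.3% of all genes tested lay above wild type in both knockout libraries and 23.8% below. Of stellate cell markers 3 of 5 tested lay above wild type in both knockout libraries and 0 below, with a summed level of 108 and 91.4 scaled FPKM in knockout against 98.3 and 79.7 in wild type. Of Kupffer cell markers 3 of 7 tested lay below and 0 above, with sums of 101 and 143 against 133 and 163. Of endothelial markers 1 of 8 tested lay below and 0 above, with sums of 65.7 and 92.2 against 60.6 and 71.0. As deposited, where the median of all genes stood at 0.19, 3 endothelial markers lay above and 0 below. The median of the Kupffer cell markers was -0.29, or 0.04 with knockout replicate 1 left out and -0.62 with knockout replicate 2 left out. Cholangiocyte markers summed to 25.9 and 14.9 in knockout against 34.4 and 24.3 in wild type, and Cldn7 had no usable locus in any library. Spp1 alone, whose groups overlapped, gave 23.5 and 13.0 of those sums against 31.4 and 22.2. Lymphocyte and neutrophil markers summed to 3.85 and 7.23 against 7.71 and 13.2, and Ly6g had none in any library. Of 2 tested, Ptprc lay above wild type in both knockout libraries and S100a9 below. All these sums count a gene without a usable locus as 0, so they partly reflect which loci were assembled. Of 8 erythroid markers 6 had none in any library, while Hbb-bs measured 83.1 in knockout replicate 1 and 78.7 in wild type replicate 1, with no usable locus in the others. Alas2 measured 37.9 in knockout replicate 1 and had no usable locus elsewhere. The part of these cells in the levels of the 10 genes was not tested.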

How the data were processed

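The authors sequenced TruSeq libraries on a HiSeq 2000, per the labels' protocols, and deposited FPKM with lower and upper bounds for loci assembled per library, per the file headers. The submitters' processing notes list FastQC, TopHat, Cufflinks and mm9. Coordinates were read on GRCm38, because 13.6% to 33.2% of loci over 2000 bases end within 20 bases of a GENCODE M21 gene end there, against 0.252% to 0.377% after a shift of 50000 bases. Strand is not given, so overlapping antisense genes cannot be told apart. Bounds cover counting error only.

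Loci were assigned to protein-coding genes by exonic overlap, leaving out ambiguous loci and those with an FPKM more than 3 times the centre of their bounds. Genes needed loci spanning 50% of a coding transcript in every library (7948 genes) and at least 1 FPKM in 2 libraries after median-of-ratios scaling (7931). limma 3.58.1 in R 4.3.3, with a trend, was fitted to log2(scaled FPKM + 1), which understates changes of low genes, with a two-sided threshold of 0.05 and 2 residual degrees of freedom. It was checked on simulated data, but the outcome is not given here, so that check adds no support to the p-values. An exact permutation test of 1 gene cannot go below p = 0.333.

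The members and lists were chosen with earlier results of these data known. All 10 members are given. Of each list, at most 4 other genes are named, those with the largest log2 difference among groups that do not overlap, filled up from the rest where fewer than 2, with Epas1, Egln3, Hjv and Hamp added. Marker genes named were chosen after their values were seen. Alternatives were other pseudocounts, filters, scalings, spans and values per gene, limma without a trend, a replicate block, each library left out, and 2 values per gene added after seeing the data.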

Additional observations from a re-analysis of the deposited data

How the results depend on the processing

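Over 18 alternatives, or 17 where a filter or span left a gene out, Hif1a stayed negative (-0.38 to -0.09 on the log2 scale), and Egln1 (0.24 to 0.56), Egln2 (0.15 to 2.18) and Ndrg1 (0.87 to 1.39) stayed positive. Ndrg1 had an unadjusted p under 0.05 in 16 of 17 alternatives, Vegfa in 14 of 18 and Arnt in 10 of 18. Reversed signs, whose cause was not tested, came with values as deposited for Vhl (0.16), Hif1an (0.14) and Bnip3 (0.19), and with quantile normalization for Bnip3 (0.0649). They came with summed loci for Vegfa (-0.0075) and P4ha1 (0.0612), with a span of 75% for Vhl (0.0160) and Bnip3 (0.0177), and for Arnt with all loci used (1.25). With 1 library left out the log2 difference ran from -0.0718 to 0.0483 for Vhl, from -0.120 to 0.0454 for Hif1an and from -0.237 to 0.204 for Bnip3.

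Genes past the adjusted threshold numbered 0 in the main fit by limma (886 at an unadjusted p under 0.05), 1 as deposited, and 1 to 410 with 1 library left out: leaving out knockout replicate 1 gave 410 and knockout replicate 2 gave 41, while wild type replicates 1 and 2 gave 2 and 1. Among the 10 genes the count was 0 to 2, with Egln2 and Ndrg1 passing without knockout replicate 1. Genes at an unadjusted p under 0.05 numbered 405 with summed loci, 590 with all loci used, and 259 to 2054 with 1 library left out. The median of all pathway list genes tested was -0.05, and it moved to -0.17 with a filter of 5 FPKM, 0.13 as deposited, -0.13 under quantile normalization, -0.0029 with summed loci, and -0.109 to -0.0370 with 1 library left out. Same-numbered libraries deviated from their group means with a correlation of 0.0789 over 7931 genes, and the labels do not pair them. With the replicate number as a block, 847 genes had an unadjusted p under 0.05, 0 passed the adjusted threshold, and Arnt had an unadjusted p of 0.0541.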

Other observations

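Oxygen falls along the liver lobule from the portal tract to the central vein, and genes of both zones were measured. For comparison, knockout lay below wild type without overlap for 23.8% of all genes tested and above for 22.3%. Of 9 tested periportal genes knockout lay below wild type without overlap for 4 and above for 1. Their median log2 difference was -0.29, against 0.02 for all genes tested. It was -0.09 as deposited, -0.57 with knockout replicate 2 left out, and -0.25 with knockout replicate 1 left out. The urea cycle enzyme Ass1 measured 865 and 1075 scaled FPKM in knockout against 1504 and 1924 in wild type, with an unadjusted p of 0.0270 and an adjusted p of 0.430 by limma. Pck1, which controls gluconeogenesis, measured 530 and 613 against 817 and 981, and the arginase Arg1 493 and 546 against 780 and 679. The cadherin Cdh1 lay the other way at 9.81 and 10.1 in knockout against 6.80 and 7.79 in wild type.

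Of 8 tested pericentral genes knockout lay below wild type without overlap for 3 and above for 1, against 23.8% and 22.3% of all genes. Their median was -0.10, or 0.08 as deposited where all genes stood at 0.19, and -0.26 with knockout replicate 2 left out. The ornithine aminotransferase Oat measured 212 and 220 in knockout against 389 and 339 in wild type, with an unadjusted p of 0.0132 and an adjusted p of 0.418 by limma. The glutamate transporter Slc1a2 measured 9.94 and 11.9 against 17.3 and 24.6, and glutamine synthetase Glul 274 and 304 against 371 and 387. Axin2, a target of Wnt signaling, lay above at 3.08 and 1.85 in knockout against 1.32 and 1.54 in wild type. No difference between the zones was tested.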
